A study of Homo sapiens with 12 samples.

Results

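MLXIP, which encodes the glucose-sensing transcription factor MondoA, ARRDC1, ARRDC2, ARRDC3 and ARRDC4, which encode alpha-arrestins, and TXNIP, the thioredoxin-interacting alpha-arrestin, were looked up by symbol in a table of 28576 genes from neuroblastoma cells in which MYCN can be switched on and TCEAL1 knocked down. The table held 5 of the 6 genes. TXNIP had no row under its symbol or its Ensembl identifier and is not analysed here. Of the 5 found, 4 passed the filter on low values, a CPM (reads of a gene per 1000000 reads of its library) of at least 0.5 in at least 3 libraries, and ARRDC4 did not. The genes were chosen with earlier results of these data known, so their values are a description without p-values, and so is the side of the test's threshold on which they fell.

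MondoA and its partner MLX form a transcription factor dimer that senses glucose 6-phosphate and binds carbohydrate response elements, a pair of E-box-like half-sites, and TXNIP and ARRDC4 are its best described targets. The proteins of the TXNIP and ARRDC group share an arrestin fold. Most carry short PPxY motifs by which they recruit NEDD4-family ubiquitin ligases to membrane proteins such as glucose transporters, and ARRDC1 is also known for driving the budding of small vesicles from the plasma membrane. MYC proteins and MondoA belong to 1 extended network of basic helix-loop-helix leucine zipper factors, and repression of TXNIP in cells with high MYC or MYCN has been described.

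The cells were SHEP, an established human neuroblastoma line, with a MYCN-ER fusion that 4-hydroxytamoxifen (OHT) activates and a doxycycline-inducible (Dox) hairpin RNA against TCEAL1, and poly(A) RNA was sequenced. The 4 groups of 3 libraries were OHT_Dox (200 nM OHT and 1 µg/ml Dox), OHT (200 nM OHT), Dox (1 µg/ml Dox) and Ctrl (neither compound). All 4 groups carried both constructs, and no group received a compound without the construct it acts on, so an effect of OHT or Dox itself cannot be told apart from that of MYCN-ER or the hairpin. Treatment times are not given in the labels, nor is it said there if each replicate came from its own culture, so the p-values below measure the spread between these libraries, which may be technical.

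The libraries held 44466458 to 57694970 reads. TCEAL1, the hairpin's target, had 2.58, 2.50 and 1.73 CPM in the OHT_Dox libraries, against 8.23, 9.75 and 8.99 CPM in the OHT libraries. It had 2.62, 2.54 and 2.74 CPM in the Dox libraries, against 9.71, 9.11 and 10.7 CPM in the Ctrl libraries, and no library of a Dox-treated group reached one without Dox. The markers listed for mesenchymal-type neuroblastoma cells, which SHEP resembles, were present (7 of 7 at a group mean of 0.5 CPM or more). Their summed level was 3560 to 3763 CPM in OHT_Dox, 4135 to 4344 in OHT, 3647 to 3826 in Dox and 4312 to 4587 in Ctrl. Of 7 adrenergic markers 3 reached that level, led by HAND2. Their summed level was 80.0 to 84.5 CPM in OHT_Dox, 74.7 to 84.0 in OHT, 67.6 to 73.8 in Dox and 67.6 to 72.0 in Ctrl. Of 4 epithelial markers 3 reached it, mainly the keratins KRT8 and KRT18, with sums of 831 to 954 CPM in OHT_Dox, 1191 to 1249 in OHT, 920 to 941 in Dox and 1321 to 1448 in Ctrl, while CDH1 averaged below 0.5 CPM in every group. Haematopoietic markers summed to at most 0.41 CPM. The mesenchymal and epithelial sums moved mainly with Dox, but single markers did not all follow. In Dox against Ctrl the log2 differences were -0.30 for VIM, -0.28 for FN1, -0.21 for CD44 and -1.28 for SNAI2. They were 0.26 for YAP1, 0.22 for NT5E and 0.11 for PRRX1. Among epithelial markers they were -0.51 for KRT8, -0.58 for KRT18, -0.18 for CDH1 and 0.02 for EPCAM. The adrenergic sum, led by HAND2, was higher with OHT. HAND2 rose by 0.36 ± 0.06 in OHT_Dox against Dox and by 0.24 ± 0.06 in OHT against Ctrl (adjusted p 0.000263 and 0.00825 in limma). In Dox against Ctrl ISL1 rose by 0.36 ± 0.10 (adjusted p 0.0313 in limma), while HAND2 was at -0.04 and GATA3 at 0.05. Fewer cells of a type and less RNA per cell cannot be told apart here, and the part of these markers in the results below was not tested. The deviation of genes in a library from their mean over all 12 libraries was most strongly related to GC content in OHT_Dox replicate 3 (Spearman's rho 0.46 across genes) and Dox replicate 1 (-0.35 across genes). Dox replicate 2 followed at -0.29, and these deviations include differences between the groups. A count in a comparison with OHT that moves by over 1.5 times without OHT_Dox replicate 3 and Dox replicate 1 is also given without them.

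Promoter sequence is shown first because the exact letters searched for as the element that MondoA is described to bind were found only for TXNIP among the members. An element spelled otherwise would be missed. RefSeq promoter windows (GRCh38.p14) were matched by symbol for all 6 genes, 9 windows in all, and the 250 bases before each start were searched on both strands for 4 words. The words were the E-box CACGTG, the paired half-sites of a carbohydrate response element (CACGNG, then any 5 bases, then CACGNG again), the CCAAT box and the forkhead word GTAAACA, and a CACGTG can also be part of a paired half-site match. Among all 35116 RefSeq windows of this length, 6.34% held CACGTG, 0.0456% (16 windows) the paired half-sites, 32.0% CCAAT and 2.98% GTAAACA. The stretches below are printed 5′ to 3′ on the gene's own strand, and capitals mark the words found.
TXNIP, minus strand, chr1:145996640-145996739: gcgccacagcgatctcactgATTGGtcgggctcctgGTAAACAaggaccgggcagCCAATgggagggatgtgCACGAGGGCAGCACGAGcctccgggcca
ARRDC4, plus strand, chr15:97960483-97960582: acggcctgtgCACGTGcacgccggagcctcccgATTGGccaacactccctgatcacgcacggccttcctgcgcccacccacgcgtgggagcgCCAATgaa
ARRDC1, plus strand, chr9:137605526-137605625: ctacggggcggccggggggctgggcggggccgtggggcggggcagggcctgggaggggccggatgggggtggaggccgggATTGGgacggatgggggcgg
ARRDC2, plus strand, second start, chr19:18008010-18008109: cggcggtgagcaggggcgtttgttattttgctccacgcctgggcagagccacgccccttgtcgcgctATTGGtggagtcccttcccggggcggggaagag
MLXIP, plus strand, chr12:122078596-122078695: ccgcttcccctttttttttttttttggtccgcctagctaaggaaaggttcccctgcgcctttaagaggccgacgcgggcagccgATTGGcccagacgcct
ARRDC3, minus strand, second start, chr5:91380109-91380137: agcccggcactTGTTTACcacggcgcggc

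The window of the first TXNIP start held the paired half-sites, at bases -88 to -72 from that start, with a CCAAT box on either side of a forkhead word upstream of them. The window of the second TXNIP start held none of the 4 words. The ARRDC4 window held a CACGTG at bases -210 to -205 and 3 CCAAT boxes, the last of them outside the stretch shown. The paired half-sites were not found in the ARRDC4 window, and no window of ARRDC1, ARRDC2, ARRDC3 or MLXIP held either E-box word. This says only that these exact letters are not in these windows. ARRDC1, the second start of ARRDC2 and MLXIP each held 1 CCAAT box on the reverse strand, at bases -80, -93 and -76. ARRDC3 held a CCAAT box before its first start and a forkhead word at bases -29 to -23 before its second, and the 29 bases printed for the second start lie in exons of longer ARRDC3 transcripts. TXNIP, with the paired half-sites, was not analysed, and ARRDC4, with a lone CACGTG, was not detected in most libraries. The 4 genes that passed the filter have neither word, so the words separate none of them.

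MLXIP (ENSG00000175727) was higher in both OHT-treated groups and differed little with Dox. It had 164, 155 and 165 CPM in the OHT_Dox libraries and 166, 144 and 155 CPM in the OHT libraries. It had 100.3, 109 and 112 CPM in the Dox libraries and 109, 99.5 and 99.96 CPM in the Ctrl libraries. Every library with OHT lay above every library without it, and the groups with and without Dox overlapped. The mean was 161 ± 5.33 CPM in OHT_Dox against 107 ± 5.89 in Dox, a ratio of 1.51, and 155 ± 10.7 CPM in OHT against 103 ± 5.27 in Ctrl, a ratio of 1.51 as well (SD, n = 3 each). The log2 difference from the fit was 0.59 ± 0.06 (SE) in each of these comparisons.

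ARRDC2 (ENSG00000105643) is an alpha-arrestin whose cargoes are less well described than those of its relatives, and its difference with OHT was the largest upward one among the 4 genes. Its level was 29.2, 31.7 and 34.3 CPM in the OHT_Dox libraries, against 16.8, 14.8 and 17.2 CPM in the Dox libraries. In the OHT libraries it was 33.5, 29.1 and 29.2 CPM, against 18.1, 13.8 and 15.6 CPM in the Ctrl libraries. The groups were well apart in both backgrounds, with the lowest library with OHT far above the highest without it. The mean in OHT_Dox (31.7 ± 2.54 CPM) was 1.95 times that in Dox (16.3 ± 1.29 CPM), and the mean in OHT (30.6 ± 2.52 CPM) was 1.93 times that in Ctrl (15.8 ± 2.12 CPM; SD, n = 3 each). On the log2 scale the differences were 0.94 ± 0.10 and 0.93 ± 0.10 (SE).

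ARRDC1 (ENSG00000197070), the vesicle-budding member, was also higher with OHT, by less. It had 21.1, 18.5 and 23.4 CPM in the OHT_Dox libraries, against 14.4, 15.0 and 17.3 CPM in the Dox libraries. It had 20.9, 17.5 and 18.5 CPM in the OHT libraries, against 14.7, 13.1 and 14.2 CPM in the Ctrl libraries. The groups did not overlap, but the highest Dox library came close to the lowest OHT_Dox library. The ratio of means was 1.35 for OHT_Dox against Dox (21.0 ± 2.44 and 15.6 ± 1.53 CPM) and 1.35 for OHT against Ctrl (19.0 ± 1.79 and 14.03 ± 0.81 CPM; SD, n = 3 each). The log2 difference was 0.42 ± 0.10 (SE) in both. Without Dox replicate 1 and OHT_Dox replicate 3 it was 0.29 for OHT_Dox against Dox.

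ARRDC3 (ENSG00000113369), an alpha-arrestin described to act on integrin beta-4, went the other way and was lower with OHT. It had 3.94, 3.86 and 2.70 CPM in the OHT_Dox libraries (211, 204 and 120 reads), against 7.30, 8.77 and 7.16 CPM in the Dox libraries (404, 484 and 358 reads). It had 3.99, 3.36 and 3.004 CPM in the OHT libraries (220, 179 and 155 reads), against 7.24, 5.87 and 6.21 CPM in the Ctrl libraries (398, 331 and 358 reads). All 6 libraries with OHT were below 4 CPM and all 6 without it above 5 CPM. The mean in OHT_Dox (3.50 ± 0.70 CPM) was 0.452 times that in Dox (7.74 ± 0.89 CPM), and the mean in OHT (3.45 ± 0.50 CPM) was 0.536 times that in Ctrl (6.44 ± 0.71 CPM; SD, n = 3 each). The log2 differences were -1.05 ± 0.14 and -0.81 ± 0.14 (SE). At this level the pseudocount matters, and with a pseudocount of 2 in place of 0.5 the first was -0.83.

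ARRDC4 (ENSG00000140450), the alpha-arrestin gene most often named beside TXNIP as a MondoA target, was at the edge of detection. It had 6 reads (0.135 CPM) in OHT_Dox replicate 3, 8 reads (0.150 CPM) in OHT replicate 2 and 0 reads in the other 10 libraries. A count of 0 allows up to 3 reads, which is 0.0520 to 0.0600 CPM in those 10 libraries and covers counting error only. Both libraries with reads came from OHT-treated groups, but 2 of the 3 libraries in each of those groups had none, and no fold or test is given.

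**Figure D1:**
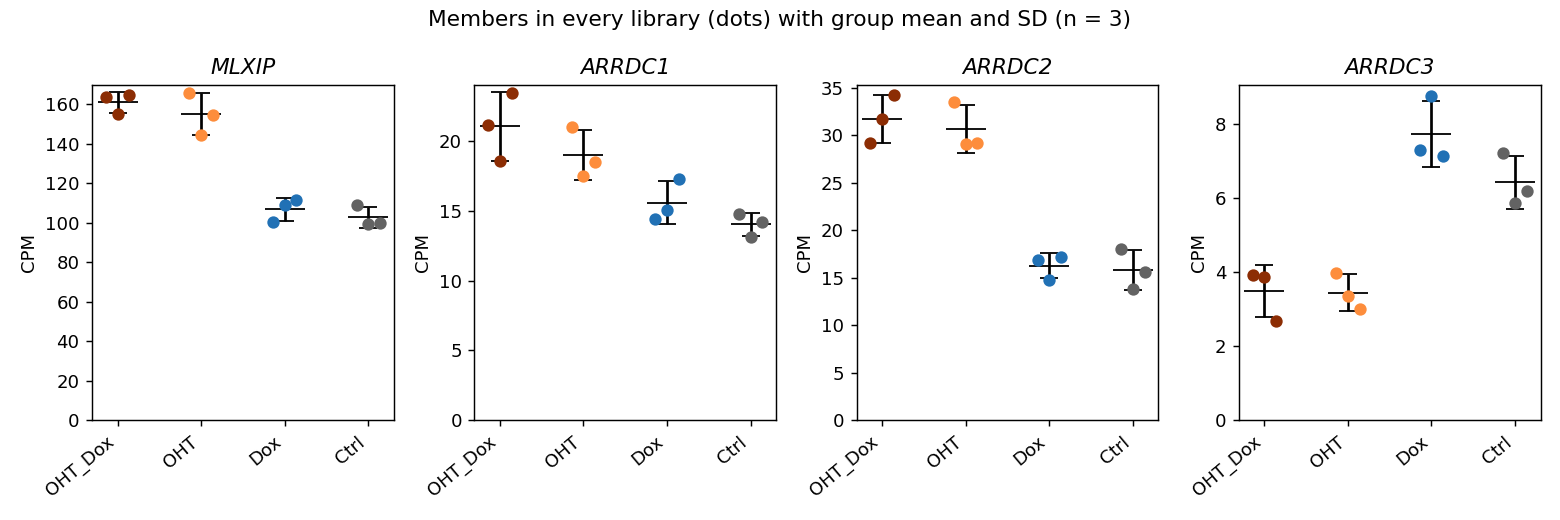
CPM of MLXIP, ARRDC1, ARRDC2 and ARRDC3 in every library, by group (OHT_Dox, OHT, Dox, Ctrl; dots are libraries, bars the mean and SD of 3). MLXIP, ARRDC1 and ARRDC2 sit higher in both groups with OHT, ARRDC3 sits lower, and groups that differ only in Dox overlap.

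For reading the counts of members, the whole table gives the background. Between OHT_Dox and Dox 3 of the 4 members were past the threshold as higher and 1 as lower, where 26% of the 18674 tested genes passed (11.5% higher, 14.5% lower). Without Dox replicate 1 and OHT_Dox replicate 3, 2 members in place of 3 were past it as higher, since ARRDC1 was not. After trimmed-mean rescaling the split over all genes turned, to 2465 higher and 2329 lower in place of 2153 and 2709. Between OHT and Ctrl the members gave the same counts, where 21.4% of genes passed (12.6% higher, 8.79% lower). With the trend with GC content and length removed that split was 2442 higher and 2533 lower in place of 2357 and 1641. Every OHT_Dox library lay above every Dox library for 17.4% of tested genes and below for 23.9%, and the corresponding shares for OHT against Ctrl were 17.5% and 16.7%. The members were chosen on these comparisons, so nothing is read from their counts. The median log2 difference of all tested genes was -0.03 for OHT_Dox against Dox and -0.01 for OHT against Ctrl.

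With Dox, TCEAL1 fell by 1.79 ± 0.13 in the presence of OHT and by 1.72 ± 0.13 in its absence on the log2 scale (adjusted p 7.79e-08 and 1.52e-07 in limma), while the members differed little and their groups overlapped. For OHT_Dox against OHT the log2 differences were 0.06 ± 0.06 for MLXIP, 0.14 ± 0.10 for ARRDC1, 0.05 ± 0.10 for ARRDC2 and 0.01 ± 0.14 for ARRDC3. For Dox against Ctrl they were 0.06 ± 0.06 for MLXIP, 0.14 ± 0.10 for ARRDC1, 0.04 ± 0.10 for ARRDC2 and 0.25 ± 0.14 for ARRDC3 (SE). No member was past the threshold for OHT_Dox against OHT, where 2.1% of tested genes passed (0.509% higher, 1.59% lower), and the groups did not overlap for 10.4% of genes that were higher and 8.33% that were lower. No member was past it for Dox against Ctrl either, where 8.29% passed (5.68% higher, 2.61% lower), and the groups did not overlap for 19.1% of genes that were higher and 9.77% that were lower. The split of called genes for Dox against Ctrl, 1061 higher and 487 lower, turned to 528 and 756 after trimmed-mean rescaling. Dox against Ctrl and OHT against Ctrl share their Ctrl libraries.

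The OHT difference in the Dox background minus that without Dox was close to 0 for 3 members, at -0.0006 ± 0.09 for MLXIP, -0.0005 ± 0.14 for ARRDC1 and 0.01 ± 0.14 for ARRDC2 on the log2 scale (SE). For ARRDC3 it was -0.24 ± 0.20, an estimate not much larger than its SE. Across all 18674 genes limma called 0 for this difference, with 2879 at an unadjusted p below 0.05, while edgeR called 0 and DESeq2 1. Leaving out Ctrl replicate 1 gave 1039 called genes.

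**Figure D2:**
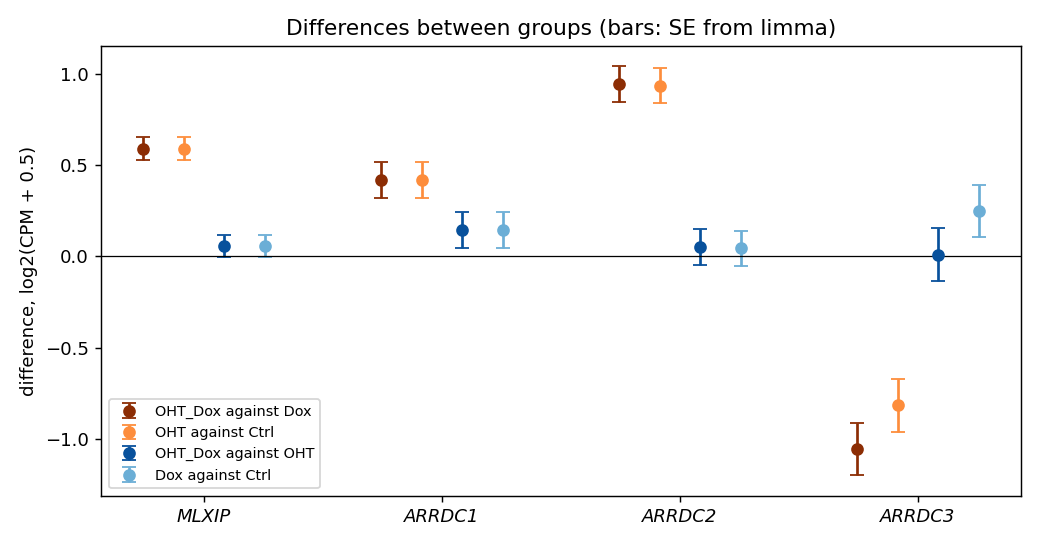
Differences of the 4 members in log2(CPM + 0.5) for the 4 comparisons (points are estimates from limma, bars their SE). The 2 comparisons with OHT lie between 0.42 and 0.94 for MLXIP, ARRDC1 and ARRDC2 and at -1.05 and -0.81 for ARRDC3, and the 2 comparisons with Dox lie between 0.01 and 0.25.

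Levels of different genes were compared per kilobase of merged exons (3821 bases for ARRDC1, 4637 for ARRDC2, 4934 for ARRDC3 and 13905 for MLXIP in GENCODE 29). The longest transcript of MLXIP has only 8427 bases, so its level and rank beside other genes depend on the length used. MLXIP was the most abundant member in every group, with 11.6 ± 0.38 CPM per kilobase in OHT_Dox, 11.2 ± 0.77 in OHT, 7.69 ± 0.42 in Dox and 7.39 ± 0.38 in Ctrl (SD, n = 3 each). ARRDC2 followed with 6.84 ± 0.55 in OHT_Dox, 6.60 ± 0.54 in OHT, 3.51 ± 0.28 in Dox and 3.42 ± 0.46 in Ctrl, and ARRDC1 had 5.50 ± 0.64, 4.96 ± 0.47, 4.08 ± 0.40 and 3.67 ± 0.21 in the same order of groups. The mean of ARRDC2 was thus above that of ARRDC1 in both groups with OHT and below it in both groups without, and in Ctrl the 2 genes differed by less than the spread of ARRDC2. ARRDC3 was the least abundant of the 4, with 0.71 ± 0.14 CPM per kilobase in OHT_Dox, 0.70 ± 0.10 in OHT, 1.57 ± 0.18 in Dox and 1.30 ± 0.15 in Ctrl. Averaged over the 12 libraries, ARRDC3 was at or above 20.8% of tested genes, ARRDC1 48.4%, ARRDC2 51.1% and MLXIP 66.0%. Within each gene, the means of OHT_Dox and OHT differed by less than the larger of their SDs for all 4, and so did those of Dox and Ctrl for MLXIP and ARRDC2. For MLXIP and ARRDC1 the means of OHT_Dox and OHT differed by more than the smaller SD. For ARRDC1 and ARRDC3 the means of Dox and Ctrl differed by more than either SD, but their libraries overlapped.

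The members differ in base composition and neighbourhood, which bears on how their reads were assigned. The longest transcript had a GC content of 62.8% for ARRDC1, 60.2% for ARRDC2, 57.9% for MLXIP and 37.6% for ARRDC3, against a median of 48.2% for tested genes. Removing the trend with GC content and length kept the direction of all 4 members in both comparisons with OHT, and it brought MLXIP to 0.51 for OHT against Ctrl. In GENCODE 29, ARRDC2 shares 442 exon bases (9.53% of its exons) with AC020904.3 on the opposite strand. ARRDC1 shares 29 bases (0.759%) with its antisense gene ARRDC1-AS1 and 4.79% of its exons with AL590627.2 on the same strand, ARRDC3 shares 145 bases (2.94%) with ARRDC3-AS1, and MLXIP shares none. The strand setting of the counting is not given in the sources used here, so it is not known how reads from the opposite-strand stretches were assigned. The stretch that ARRDC1 shares with AL590627.2 lies on the same strand, so no strand setting would separate its reads. ARRDC1-AS1 fell in OHT against Ctrl (-0.33 ± 0.10, adjusted p 0.0224 in limma), a call that was lost without Ctrl replicate 1, OHT replicate 2 or OHT replicate 3, and its difference for OHT_Dox against Dox was -0.18.

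The genes whose pattern over the 12 libraries was most like a member's were found among 11621 genes that averaged 5 CPM or more, by the root mean square difference of log2(CPM + 0.5) after each gene was centred on its own mean. For MLXIP, whose own root mean square deviation was 0.303, they were CNNM3 (0.0455), VEGFA (0.0602) and ZNF584 (0.0607). For ARRDC1 (0.246) they were SGSM2 (0.0563), PLEKHG3 (0.0632) and TSPAN4 (0.0672). For ARRDC2 (0.483) they were RALGDS (0.0722), TEX2 (0.0960) and L3MBTL3 (0.102). For ARRDC3 (0.50) the nearest were the Toll-like receptor genes TLR1 (0.135) and TLR6 (0.137) and TRIM38 (0.152), so the low-level member had less close neighbours. No member was among another member's 3 nearest genes.

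The list counts with OHT, here and below, stand beside the shares of all tested genes called. These were 11.5% higher and 14.5% lower in OHT_Dox against Dox, and 12.6% higher and 8.79% lower in OHT against Ctrl. The partners and relatives of MondoA in its network were set beside MLXIP. MLX, the obligate partner, had 40.5 ± 0.57 CPM in OHT_Dox, 38.9 ± 0.72 in OHT, 42.6 ± 0.71 in Dox and 41.7 ± 2.48 in Ctrl (SD, n = 3 each), and its log2 difference for OHT against Ctrl was -0.10 (adjusted p 0.292 in limma). MLXIPL, which encodes the MondoA paralogue ChREBP, averaged 0.25 to 0.44 CPM and was below the filter. Of the 8 list genes tested, 3 rose and 1 fell in OHT_Dox against Dox, and 4 rose and 0 fell in OHT against Ctrl, with list medians of 0.10 and 0.09. MXI1, a MAX-binding repressor of the MXD group, rose by 1.18 ± 0.09 and 1.53 ± 0.09 on the log2 scale (adjusted p 1.59e-08 and 4.7e-10 in limma). MNT, another MAX- and MLX-binding repressor, rose by 0.47 ± 0.11 and 0.79 ± 0.11 (adjusted p 0.00272 and 1.74e-05), and MAX by 0.25 ± 0.06 and 0.27 ± 0.06 (adjusted p 0.00319 and 0.00202). MXD1 fell by 0.30 in OHT_Dox against Dox (adjusted p 0.00266 in limma). The MNT call in OHT_Dox against Dox was lost without Dox replicate 1 and OHT_Dox replicate 3 together. For the lower calls in OHT against Ctrl, the count was 2 without Ctrl replicate 1 in place of 0.

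**Figure D3:**
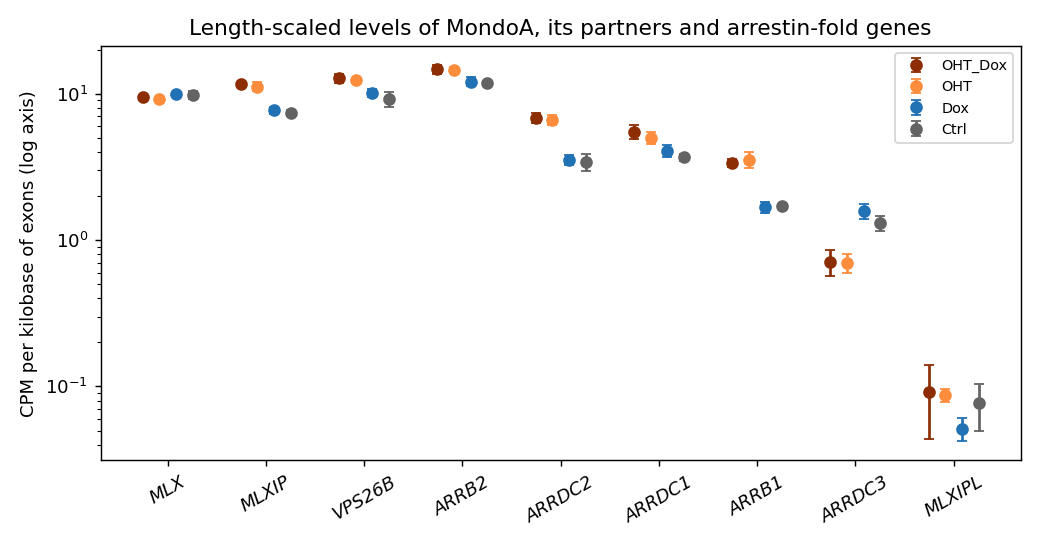
Mean CPM per kilobase of exons (log axis, bars SD of 3 libraries) of MLX, MLXIP, ChREBP (MLXIPL) and arrestin-fold genes in OHT_Dox, OHT, Dox and Ctrl. MLXIP moved between 7.39 in Ctrl and 11.6 in OHT_Dox while MLX stayed between 9.14 and 10.0, and MLXIPL lay below 0.1. The level of MLXIP beside that of MLX depends on the length used for each gene.

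The other arrestin-fold genes gave 3 rises and 3 falls among 7 tested in OHT_Dox against Dox, and 3 rises and 0 falls in OHT against Ctrl. Their medians were -0.20 and 0.00. ARRB1, which encodes beta-arrestin 1, rose by 0.97 ± 0.10 and 1.01 ± 0.10 (adjusted p 4.8e-07 and 2.88e-07 in limma), a size close to that of ARRDC2. ARRB2, for beta-arrestin 2, rose by 0.28 ± 0.07 and 0.30 ± 0.07, and VPS26B, a retromer subunit, by 0.32 ± 0.08 and 0.43 ± 0.08. RGP1 fell by 0.33 in OHT_Dox against Dox (adjusted p 0.00469 in limma). Without Dox replicate 1 and OHT_Dox replicate 3 together, 1 rise in place of 3 was called in OHT_Dox against Dox, and without Dox replicate 3 there was 1 fall in place of 3. ARRDC5, the remaining alpha-arrestin gene, had at most 0.156 CPM in any library.

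Among the NEDD4-family ligases that alpha-arrestins recruit, 0 of 9 rose and 4 fell in OHT_Dox against Dox, and 1 rose and 2 fell in OHT against Ctrl (medians -0.14 and -0.05). SMURF2 fell by 0.43 ± 0.05 and by 0.29 ± 0.05 (adjusted p 4.9e-06 and 0.000374 in limma), and NEDD4L fell by 0.38 ± 0.06 and by 0.25 ± 0.06. NEDD4 fell by 0.44 ± 0.08 and ITCH by 0.30 ± 0.07 in OHT_Dox against Dox (adjusted p 0.000614 and 0.00469 in limma). HECW1 rose by 0.80 ± 0.14 in OHT against Ctrl (adjusted p 0.000321). The ESCRT and vesicle partners of ARRDC1 include the ligases NEDD4L and WWP2, so the fall of NEDD4L counts in both lists. They gave 0 rises and 3 falls of 11 in OHT_Dox against Dox (median -0.13), with VPS4B, an ATPase that disassembles ESCRT filaments, at -0.38 ± 0.06 (adjusted p 5.74e-05 in limma). In OHT against Ctrl they gave 0 rises and 2 falls (median -0.10), and 1 fall, NEDD4L, was left without any 1 of Ctrl replicates 2 and 3 and OHT replicates 1 to 3. TSG101, which ARRDC1 binds, was at -0.16 in OHT_Dox against Dox (adjusted p 0.0334 in limma), a call that was lost under trimmed-mean rescaling.

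The described cargoes gave 2 rises and 0 falls of 8 in OHT_Dox against Dox, and 4 rises and 0 falls in OHT against Ctrl (medians 0.18 and 0.21). NOTCH1, a receptor whose traffic ARRDC1 has been described to affect, rose by 0.73 ± 0.08 and 0.67 ± 0.08 (adjusted p 9.14e-07 and 2.46e-06 in limma). SLC2A4, the insulin-regulated glucose transporter, rose by 0.63 ± 0.17 and 0.92 ± 0.17 (adjusted p 0.00833 and 0.000515). The rises numbered 1 in OHT_Dox against Dox without Dox replicate 1 and OHT_Dox replicate 3 together, and 2 in OHT against Ctrl without Ctrl replicate 2 or OHT replicate 1. Without Ctrl replicate 2, 1 fall was called in OHT_Dox against Dox. ITGB4, integrin beta-4, a cargo described for ARRDC3, was low and was not called in any comparison. It averaged 1.81 CPM in OHT_Dox, 1.75 in OHT, 1.34 in Dox and 1.66 in Ctrl.

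The genes of hexose uptake and first glucose use, which set the glucose 6-phosphate that MondoA senses, gave 4 rises and 1 fall of 14 in each comparison with OHT (medians 0.01 and 0.03), and the rise of SLC2A4 counts here and among the cargoes, since SLC2A1 and SLC2A4 are in both lists. HK2, a hexokinase that makes glucose 6-phosphate, rose by 0.99 ± 0.06 and 1.09 ± 0.06 (adjusted p 1.2e-09 and 3.25e-10 in limma). SLC2A3, a neuronal-type glucose transporter, fell by 0.74 ± 0.09 and by 0.75 ± 0.09 (adjusted p 9.6e-06 and 8.82e-06). SLC2A1, the widespread glucose transporter and a described TXNIP cargo, was lower in Dox than in Ctrl (-0.30 ± 0.07, adjusted p 0.0206 in limma), a call lost without Ctrl replicate 3 or Dox replicate 2. Without Dox replicate 2, or without Dox replicate 1 and OHT_Dox replicate 3 together, 2 rises in place of 4 were called in OHT_Dox against Dox.

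With TXNIP not analysed and ARRDC4 barely detected, the other described targets of MondoA or ChREBP were counted. They gave 2 rises and 3 falls of 15 in OHT_Dox against Dox, and 5 rises and 0 falls in OHT against Ctrl (medians 0.06 and 0.17). RGS16, a regulator of G-protein signalling described as a ChREBP target, rose by 2.47 ± 0.16 and 1.78 ± 0.16 (adjusted p 1.94e-09 and 1.09e-07 in limma). Its level was low, with 2.80 CPM in OHT_Dox against 0.0977 in Dox and 1.99 CPM in OHT against 0.224 in Ctrl. RGS16 passed the filter on low values only through libraries with OHT, so its place among the tested genes depended on the difference reported. HBP1 fell by 0.49, ACACB by 0.52 and KLF10 by 0.31 in OHT_Dox against Dox (adjusted p 0.000253, 0.00148 and 0.00287 in limma). The lipid synthesis genes ELOVL6, SCD and FASN rose by 0.77 ± 0.10, 0.96 ± 0.20 and 0.94 ± 0.24 in OHT against Ctrl (adjusted p 8.06e-06, 0.00151 and 0.00743). For FASN, OHT replicate 1 had 1921 CPM and Ctrl replicate 2 had 438 CPM, and the call was lost without either of them. Without Ctrl replicate 2 this list had 3 rises and 1 fall in OHT against Ctrl. In OHT_Dox against Dox 1 rise was called without Dox replicate 3, OHT_Dox replicate 1 or OHT_Dox replicate 2.

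The thioredoxin system, which TXNIP is known to inhibit, gave 4 rises and 1 fall of 18 in OHT_Dox against Dox, and 5 rises and 0 falls in OHT against Ctrl (medians 0.08 and 0.00). SRXN1, the sulfiredoxin that restores oxidised peroxiredoxins, rose by 0.53 ± 0.05 and 0.47 ± 0.05 (adjusted p 2.14e-07 and 9.08e-07 in limma), and TXNRD1, cytosolic thioredoxin reductase, by 0.25 ± 0.05 in OHT against Ctrl (adjusted p 0.00136). TXN itself, thioredoxin, had 189 ± 4.37 CPM in OHT_Dox, 191 ± 15.6 in OHT, 176 ± 5.08 in Dox and 199 ± 25.1 in Ctrl (SD, n = 3 each) and was not called in any comparison. In OHT against Ctrl 3 rises were called without Ctrl replicate 3, OHT replicate 2 or OHT replicate 3, and in OHT_Dox against Dox 2 were called without OHT_Dox replicate 3, alone or together with Dox replicate 1. The falls numbered 2 in OHT against Ctrl without Ctrl replicate 1 or OHT replicate 2, and 0 in OHT_Dox against Dox without Dox replicate 1 or 2 or OHT_Dox replicate 1 or 3, and also 0 without Dox replicate 1 and OHT_Dox replicate 3 together and after trimmed-mean rescaling. In Dox against Ctrl 1 gene rose and 4 fell, led by GLRX, a glutaredoxin (0.37 ± 0.06, adjusted p 0.00128), and TXNRD2, the mitochondrial reductase (-0.35 ± 0.06, adjusted p 0.00326). Without 1 library these falls numbered 7 (Ctrl replicate 1), 2 (Ctrl replicate 2 or 3 or Dox replicate 3) or 1 (Dox replicate 2), and the rises 2 without Ctrl replicate 1.

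Genes induced by FOXO factors and by glucocorticoids were listed because TXNIP, ARRDC2 and ARRDC3 have been described among such genes. FOXO targets gave 2 rises and 5 falls of 14 in OHT_Dox against Dox, and 5 rises and 4 falls in OHT against Ctrl (medians -0.09 and -0.07), and the rise of INSR in OHT against Ctrl also counts among the cargoes. CCNG2, an atypical cyclin, fell by 1.21 ± 0.17 and by 0.90 ± 0.17 (adjusted p 2.32e-05 and 0.000551 in limma). PIK3IP1, an inhibitor of PI3-kinase, rose by 0.84 ± 0.15 and 0.98 ± 0.15 (adjusted p 0.000368 and 9.93e-05). With 1 library left out the falls numbered 3 in OHT_Dox against Dox (without Dox replicate 3, any 1 OHT_Dox library, or Dox replicate 1 and OHT_Dox replicate 3 together) and 2 in OHT against Ctrl (without Ctrl replicate 3 or OHT replicate 2). The rises in OHT against Ctrl numbered 3 without Ctrl replicate 2 or 3, OHT replicate 1 or 3, Dox replicate 2 or 3 or OHT_Dox replicate 1 or 2. Glucocorticoid-induced genes gave 5 rises and 2 falls of 13 in OHT_Dox against Dox, and 5 rises and 3 falls in OHT against Ctrl (medians 0.24 and 0.11). TSC22D3, which encodes the glucocorticoid-induced leucine zipper protein, rose by 1.16 ± 0.13 and 1.91 ± 0.13 (adjusted p 1.52e-06 and 2.08e-09 in limma). SGK1, a kinase also induced by glucocorticoids, fell by 0.76 ± 0.07 and by 0.44 ± 0.07 (adjusted p 2.28e-07 and 0.000129).

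**Figure D4:**
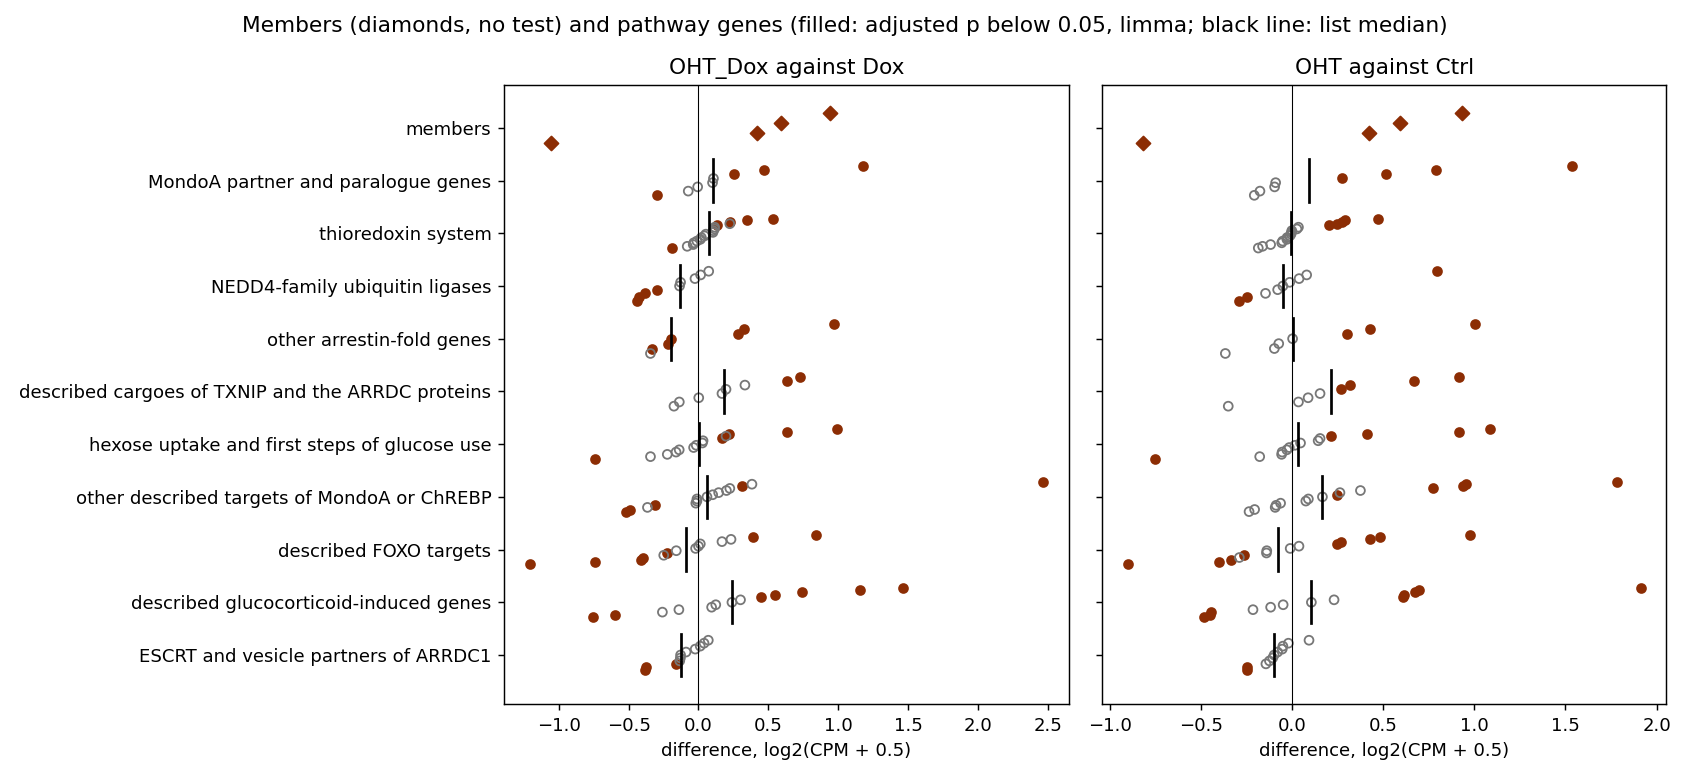
Difference in log2(CPM + 0.5) for the members (diamonds, no test) and for each gene of the pathway lists, OHT_Dox against Dox left and OHT against Ctrl right (filled circles have an adjusted p below 0.05 in limma, black lines are list medians). List medians lie between -0.20 and 0.24, with single genes such as RGS16 (2.47 and 1.78) and CCNG2 (-1.21 and -0.90) far from them.

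The list counts with Dox stand beside 2.1% of all tested genes called in OHT_Dox against OHT and 8.29% in Dox against Ctrl. In OHT_Dox against OHT, 0 of 8 MondoA relatives, 0 of 18 thioredoxin system genes, 0 of 9 ligases, 0 of 7 arrestin-fold genes, 0 of 8 cargoes, 0 of 14 hexose genes, 0 of 14 FOXO targets and 0 of 11 ESCRT partners were called. Without Ctrl replicate 2, 1 thioredoxin system gene, 1 cargo and 1 hexose gene fell, and after trimmed-mean rescaling 1, 1 and 2 did. Without Ctrl replicate 1, 1 thioredoxin system gene fell. Among MondoA or ChREBP targets 1 rose and 2 fell, of which SCD fell by 0.98 ± 0.20 (adjusted p 0.00887 in limma), a call lost without OHT replicate 1 or OHT_Dox replicate 2. These falls numbered 0 without either of those libraries, 4 without Ctrl replicate 2, 1 without Ctrl replicate 3, OHT replicate 3, Dox replicate 2 or OHT_Dox replicate 1 or 3, and 5 after trimmed-mean rescaling, and the rise was lost without OHT replicate 1 or OHT_Dox replicate 3. Without Dox replicate 1 and OHT_Dox replicate 3 together 0 rises and 1 fall were called. Among glucocorticoid-induced genes 1 rose and 3 fell, and SGK1 fell by 0.77 ± 0.07 and TSC22D3 by 0.69 ± 0.13 (adjusted p 1.58e-06 and 0.00389 in limma). The rise, MT1X, was lost without OHT replicate 1 or 2 or any 1 OHT_Dox library, with a pseudocount of 0.1, with no filter and in both edgeR and DESeq2, and 2 rises were called without Ctrl replicate 1 or 2. In Dox against Ctrl, 2 of 9 ligases rose, NEDD4 (0.32 ± 0.08) and WWP1 (0.20 ± 0.05), with adjusted p 0.0268 and 0.0308 in limma. Of 13 glucocorticoid-induced genes 1 rose and 1 fell there. FKBP5 rose by 0.26 ± 0.06 (adjusted p 0.0109 in limma), a call lost without Ctrl replicate 3 or Dox replicate 2, and SGK1 fell by 0.46 ± 0.07 (adjusted p 0.00103). Neither of the 2 ligase calls was kept without any 1 of the 3 Dox libraries or Ctrl replicate 2 or 3. In the same comparison 1 hexose gene rose and 2 fell of 14, 1 cargo rose and 1 fell of 8, and 1 MondoA or ChREBP target rose and 1 fell of 15. Of 14 FOXO targets 1 fell, and of 11 ESCRT partners 1 rose. Each of these counts was 0 in at least 1 case with 1 library left out. No MondoA relative or other arrestin-fold gene was called, but without Ctrl replicate 1, 1 MondoA relative rose and 1 fell.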

How the data were processed

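Poly(A) RNA-seq of 12 libraries, 3 in each of 4 groups, was analysed from a table of CPM deposited by the authors, whose columns each sum to 1000000 over 28576 genes. Per the submitters' processing notes, featureCounts, STAR, DRAGEN, Bowtie, Bowtie2 and FastQC were used in the series, with hg19 and mm10 as builds. Which of them made the table, the gene annotation and the strand setting are not given in the sources used here. The deposited CPM were whole multiples of 1 read in every library (100% of values within 0.01 reads), so reads were recovered, 44466458 to 57694970 a library. Intervals and limits from counts cover counting error only.

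Genes with at least 0.5 CPM in at least 3 libraries (18674) were fitted with limma 3.58.1 in R 4.3.3 on log2(CPM + 0.5), a scale that understates changes of low genes, with 1 mean a group, a shared spread and a mean trend. P-values are two-sided and Benjamini-Hochberg adjusted over all genes tested, with a threshold of 0.05. The members and lists were chosen with earlier results of these data known. Members get differences without p-values. Each list is described by its counts and median, and up to 4 called genes with the smallest p were named per list and comparison. Genes most like a member were the 3 with the smallest root mean square difference. Alternatives were pseudocounts of 0.1 and 2, no filter, trimmed-mean rescaling, edgeR 4.0.16 and DESeq2 1.42.0 on recovered reads, a replicate block and each library left out. Removal of a GC and length trend (a spline with 5 degrees of freedom) and leaving out Dox replicate 1 and OHT_Dox replicate 3 together were chosen after seeing the data. On the recovered reads edgeR called 4745 genes for OHT_Dox against Dox and 4008 for OHT against Ctrl. The code was tested on simulated data. Lengths, GC content and overlaps come from GENCODE 29 (28572 identifiers matched), and promoter sequences from RefSeq GRCh38.p14. No gene coordinates are given for the table, whose build is not stated.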

Additional observations from a re-analysis of the deposited data

Results flagged for a closer look

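In 4 list genes every library moved one way with Dox in the absence of OHT and the opposite way in its presence, with the groups not overlapping, among 118 list genes and members looked at (3.39%). Over all 18674 tested genes 170 did so (0.91%), and nothing particular to these lists is read from the count. HBP1, a repressor described as a MondoA target, had log2 differences of -0.14 for OHT_Dox against OHT and 0.11 for Dox against Ctrl. RGS16, a regulator of G-protein signalling, had 0.41 and -0.27 in the same order of comparisons, at levels below 0.4 CPM in the Dox and Ctrl libraries. VPS26A, a retromer subunit with an arrestin fold, had -0.12 and 0.080. VPS4B, the ESCRT ATPase, had -0.12 and 0.14. The difference between the backgrounds did not pass the threshold for any of them in limma (adjusted p 0.319 for HBP1, 0.221 for RGS16, 0.258 for VPS26A and 0.221 for VPS4B).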

How the results depend on the processing

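The 21 alternatives altered 280 member differences over all comparisons, and 276 of these stayed within 1 SD of the reported value. The other 140 of 420 were the reported value by construction, and the direction with OHT when 1 library is left out is fixed by groups that do not overlap. The 4 that moved were ARRDC1 for OHT_Dox against Dox (0.29) and for the difference between backgrounds (-0.13), both without Dox replicate 1 and OHT_Dox replicate 3, ARRDC3 for OHT_Dox against Dox with a pseudocount of 2 (-0.83), and MLXIP for OHT against Ctrl with the GC and length trend removed (0.51).

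The number of genes called was 2988 for OHT_Dox against Dox without those 2 libraries. For Dox against Ctrl it was 992 with no filter and 2525 with the replicate block, and 197 (without Dox replicate 2) to 3182 (without Ctrl replicate 1) with 1 library left out. For OHT_Dox against OHT it was 680 with DESeq2, 631 with the replicate block and 695 with the GC and length trend removed, and 200 (without OHT replicate 1) to 503 (without Ctrl replicate 1) with 1 library left out. For the difference between backgrounds DESeq2 called 1 gene, and leaving out 1 library gave 0 to 1039. The causes were not tested. With 1 library left out, OHT against Ctrl had 2817 to 4304 called genes and OHT_Dox against Dox 3562 to 5136. Of 2310 list counts, 2091 stayed within 1.5 times, 72 were larger and 147 smaller.

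Replicate numbers are shared between groups. Deviations of same-numbered libraries correlated at -0.00596 to 0.33 across genes, and in no comparison were all 3 above 0.1. The labels do not say if same-numbered libraries were made together, and these values do not settle it. The replicate block gave 4528 called genes for OHT against Ctrl in place of 3998, and 5422 for OHT_Dox against Dox in place of 4862. ARRDC4, with 0 reads in 10 libraries, was at the limit of the depth.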
